A study of Triticum aestivum with 24 samples.

Results

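GSTZ1, lgul and TaPCS1 encode 3 enzymes that use the tripeptide glutathione, and their RNA was followed in wheat flag leaves across cultivar, stage and water supply. Each gene was represented by 1 probe set of the Affymetrix wheat array, TaAffx.56524.1.S1_at for GSTZ1, Ta.28068.1.S1_at for lgul and Ta.232.1.S1_at for TaPCS1, 3 in all out of 61179 that were not array controls. They were picked by name after their water response had been seen on the same arrays: GSTZ1 for TAM 112 at grain filling, lgul for TAM 111 at heading and TaPCS1 for TAM 111 at grain filling. Those choosing comparisons, and every other comparison that shares their water contrast, are given as descriptions with no p-value.

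Glutathione transferases join glutathione to reactive or foreign compounds. The zeta class, to which GSTZ1 belongs, also acts as maleylacetoacetate isomerase in the breakdown of tyrosine. lgul encodes lactoylglutathione lyase (glyoxalase I), which works on the adduct of glutathione and methylglyoxal, a toxic by-product of sugar metabolism. TaPCS1 encodes phytochelatin synthase, which builds metal-binding phytochelatin peptides from glutathione. Wheat is hexaploid, and 1 probe set can detect RNA from several homoeologous copies of a gene.

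The 24 arrays held flag leaf RNA of the winter wheat cultivars TAM 111 and TAM 112, taken at heading or at grain filling from plants kept wet or dry, with 3 arrays in each of the 8 groups. All plants grew in a greenhouse, and the labels name 90% and 50% of field capacity as the water levels without saying which name belongs to which. Replicates are numbered, but nothing in the labels says that they came from separate plants, so the p-values rest on a spread among samples that may be technical. In such bulk RNA, fewer cells of a type and less RNA per cell cannot be told apart.

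Levels are linear MAS5 signals as the authors scaled them, and the mean of each array without the 2% highest and lowest probe sets was 500.1 on all 24. Precision is limited by how many arrays there are. All 3 probe sets lay above the array-wide median signal of 69 on 24 of 24 arrays and were among the 37516 tested. Changes are differences of log2(signal + 11.71) with their limma standard error (SE), and a change was called at a limma p below 0.05 after Benjamini-Hochberg adjustment over all 37516. Fold changes are on that scale too, which understates changes of low signals. Whether the arrays of groups overlap is a description, and the share of all tested probe sets without overlap was not counted.

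The arrays carried the mark of leaf tissue: 7 photosynthesis genes were above 69 on all 24. Their summed signal was 235240 to 295690 on the arrays of the other 6 groups and 202580 to 222730 in the dry grain filling groups, so it was lower where GSTZ1 and TaPCS1 were highest. Its part in their levels was not tested. Of 9 grain storage protein and starch genes, 5 never reached 69. LMGli2482 did on 2 arrays (highest signal 104), LMW-m2 on 15 (highest 222) and Prolamin on 21 (highest 331), and avnlb was bright on all 24 (5931 to 7382). The 9 summed to 6297 to 7801 per array, most of it from avnlb. Of 3 pollen and anther genes, TaRAFTIN1a never reached 69, TaRAFTIN1b did on 3 arrays, and a profilin gene was bright on all 24. Their sum was 21981 to 33575.

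A set of 3 TAM 111 arrays, each numbered 2, stood apart from their groups. They came from wet heading leaves, dry heading leaves and wet grain filling leaves. On the second principal component of all tested probe sets they scored 1.71 to 10.5, between 45.2 to 62 for the other 9 TAM 111 arrays and -51.4 to -29.5 for the 12 TAM 112 arrays. Results for TAM 111 whose call changed without them are therefore given both ways.

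GSTZ1 had overlapping signals in wet and dry leaves at heading and higher signals in dry leaves at grain filling. At heading, the wet TAM 111 arrays had signals of 3686, 4237 and 4050.3, and the dry ones 4401, 3628 and 4221. The wet TAM 112 arrays had 4003, 3829 and 3763, and the dry ones 3676, 4134 and 3307. Wet and dry arrays overlapped at this stage in both cultivars.

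At grain filling the GSTZ1 signals of wet and dry leaves parted. In TAM 111 the wet arrays had 2801, 2618 and 3171 and the dry ones 4471, 4596 and 4412. In TAM 112 the wet arrays had 2740.2, 2840.0 and 2785 and the dry ones 6248, 5454 and 5094. No wet array reached any dry array in either cultivar, though the TAM 112 comparison chose the gene.

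**Figure D1:**
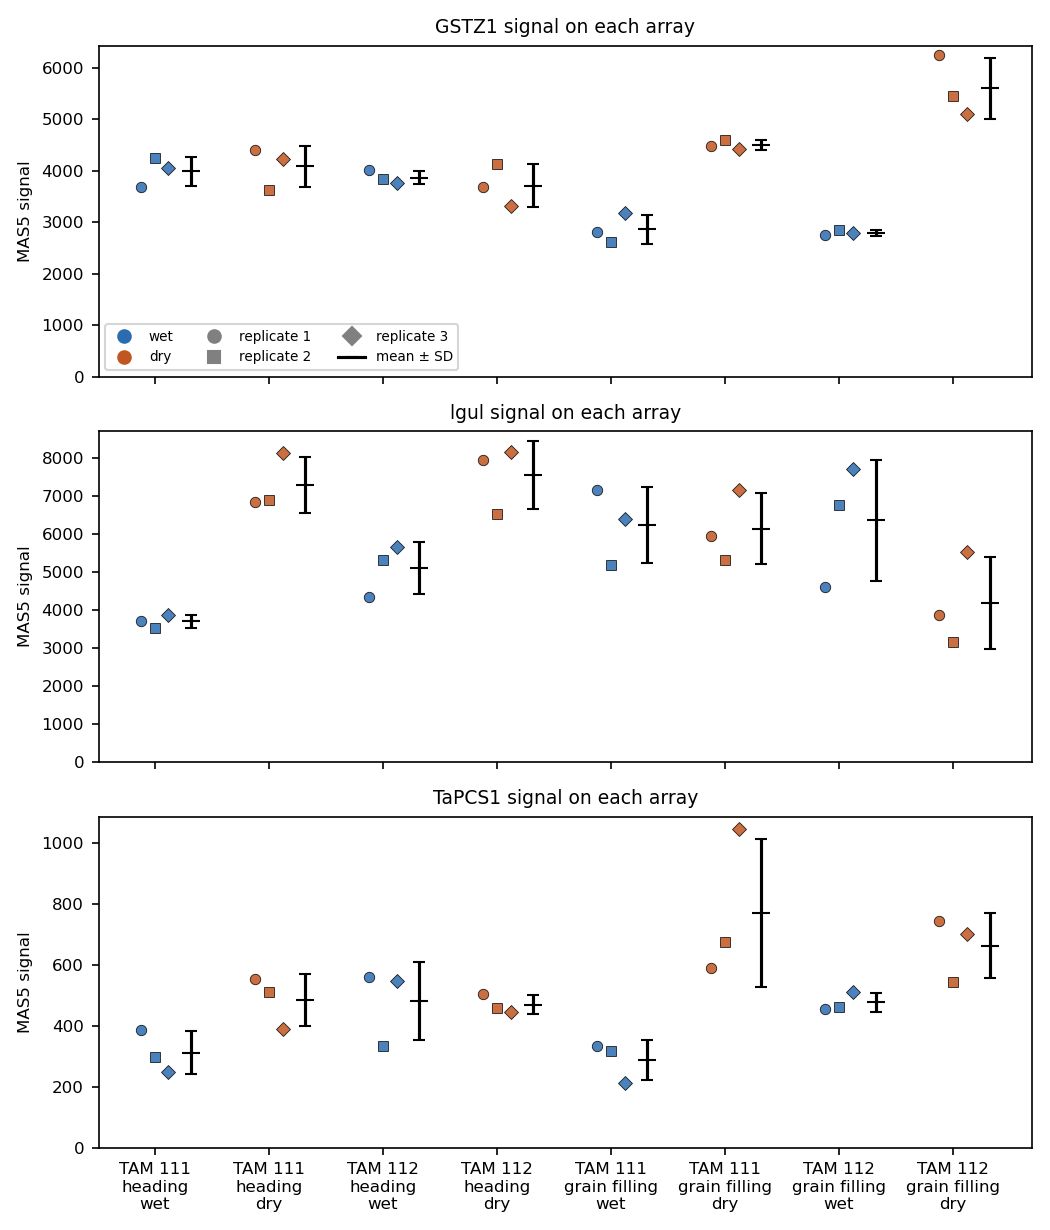
MAS5 signal (linear scale) of GSTZ1, lgul and TaPCS1 on each of the 24 arrays by cultivar, stage and water treatment. Points are arrays, and bars mark the mean and SD of 3. The GSTZ1 points split by water at grain filling, where the wet arrays lie at 2618 to 3171 and the dry arrays at 4412 to 6248, whereas the 12 heading arrays lie at 3307 to 4401.

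In TAM 111, dry GSTZ1 rose above wet at grain filling, from 2863 ± 282 to 4493 ± 93.9 (SD, n = 3 arrays each). The log2 change was 0.65 (SE 0.100), 1.57-fold, with a limma adjusted p of 6.12e-05, and 18.9% of all tested probe sets were called in that comparison. In TAM 112 the same means were 2789 ± 50.0 and 5599 ± 590, a 2.00-fold difference and a log2 change of 0.998 (SE 0.100). This second value chose the gene and is only described, beside 31.6% of probe sets called there. At heading the log2 change was 0.03 in TAM 111 (limma adjusted p = 0.927, 4.54% of probe sets called) and -0.07 in TAM 112 (limma adjusted p = 0.829, 3.6% called). Without the 3 arrays that stood apart, the TAM 111 changes were 0.59 at grain filling (limma adjusted p = 7.08e-04) and 0.16 at heading (limma adjusted p = 0.621).

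The signal of control probe sets at the 3' end of GAPDH over that at its 5' end moved with the TAM 112 groups at grain filling. Such ratios are an array measure of RNA integrity, but the mean log2 GAPDH ratio was below 0 in all 8 groups (-2.73 to -0.939). How far this ratio measured integrity here was not tested. On the log2 scale it was -2.73 ± 1.25 on the wet arrays and -1.06 ± 0.489 on the dry ones (SD, n = 3). In TAM 111 it was -2.43 ± 0.478 and -1.70 ± 0.735. Its part in the GSTZ1 levels was not tested. Across arrays within groups, GSTZ1 correlated with this ratio at r = -0.397 (24 arrays that share preparation and scaling). The same ratio for actin was 1.2 ± 0.505 wet and 1.11 ± 1.96 dry in TAM 112 at grain filling. GSTZ1 correlated with the actin ratio within groups at r = 0.322.

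The dry minus wet change of GSTZ1 was larger at grain filling than at heading in TAM 111, by 0.62 on the log2 scale (SE 0.142). For this difference of changes limma gave an adjusted p of 0.0191, and 3.07% of probe sets were called. The call rested on few arrays: without the 3 arrays that stood apart the difference was 0.43 (limma adjusted p = 0.227). Without all 4 TAM 111 arrays numbered 2 it was 0.42 (limma adjusted p = 0.367). Leaving out single arrays numbered 2 gave limma adjusted p-values of 0.0522 (heading wet), 0.0610 (heading dry), 0.0512 (grain filling wet) and 0.0570 (grain filling dry). In TAM 112 the difference between stages was 1.06 (SE 0.142), a description, where 14.5% of probe sets were called. The other 2 probe sets of the gene, described further on, had smaller differences: 0.0645 and 0.18 in TAM 111, not called (limma adjusted p = 0.905 and 0.740), and 0.58 and 0.55 in TAM 112 (descriptions).

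In wet TAM 111 leaves GSTZ1 fell by 0.48 on the log2 scale from heading to grain filling (SE 0.100, limma adjusted p = 0.00997, 2.74% of probe sets called), with no overlap between the groups. Without the 3 arrays that stood apart the value was -0.37 (limma adjusted p = 0.188). Leaving out the heading or the grain filling array numbered 2 gave limma adjusted p-values of 0.0584 and 0.0650. The call was also lost in a fit of only the arrays compared (limma adjusted p = 0.0711) and on the other 2 probe sets (limma adjusted p = 0.113 and 0.102). In wet TAM 112 leaves the change was -0.47 (description, 4.33% called). In dry TAM 111 leaves it was 0.14 (limma adjusted p = 0.376, 17.7% called), and in dry TAM 112 leaves 0.59 (description, 32.9% called).

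Averaged over water, no stage or cultivar change of GSTZ1 passed the test. Grain filling minus heading was -0.17 in TAM 111 (limma adjusted p = 0.113, 16.7% of probe sets called) and 0.06 in TAM 112 (limma adjusted p = 0.562, 29.4% called). TAM 112 minus TAM 111 was -0.09 at heading (limma adjusted p = 0.645, 4.89% called) and 0.14 at grain filling (limma adjusted p = 0.234, 10.9% called). The water change differed between the cultivars by -0.10 at heading (limma adjusted p = 0.990, 0.00267% called). At grain filling it was larger by 0.35 in TAM 112 (SE 0.142, description, 0.0347% called).

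Ordered by mean signal, GSTZ1 was lowest in wet grain filling leaves of TAM 112 and then of TAM 111, at 2789 and 2863. The 4 heading groups followed at 3706, 3865, 3991 and 4083, and the dry grain filling leaves of TAM 111 (4493) and TAM 112 (5599) stood highest. Of the 7 steps between neighbours in this order, 2 were larger than the summed SDs of the neighbours: the step from wet grain filling to heading, 842 against 696, and the last step, 1106 against 684. The heading groups did not differ from their neighbours among themselves beyond the spread.

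The array annotation ties a further 2 probe sets to GSTZ1, Ta.237.1.S1_a_at and Ta.237.1.S1_at, whose names give the same transcript cluster. At grain filling their dry minus wet changes in TAM 111 were 0.15 (limma adjusted p = 0.441) and 0.43 (limma adjusted p = 0.0496). In TAM 112 they were 0.45 and 0.39 (descriptions). Each of these was positive and smaller than the change of the first probe set in the same cultivar. Both fell with stage in TAM 111, by 0.33 (limma adjusted p = 0.00912) and 0.38 (limma adjusted p = 0.0167) averaged over water. In TAM 112 Ta.237.1.S1_at fell by 0.34 (limma adjusted p = 0.0185), and Ta.237.1.S1_a_at gave -0.06 (limma adjusted p = 0.659). Over the 24 arrays they correlated with the first probe set at r = 0.696 and 0.518, ranks 992 and 3687 among the 37515 other tested probe sets. Within groups these correlations were 0.504 and -0.0426.

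lgul had a different pattern: its signal was higher on all dry than on all wet arrays at heading, and its mean was lower in dry leaves at grain filling in TAM 112. At heading the wet TAM 111 arrays had signals of 3708, 3529 and 3863 and the dry ones 6839, 6890.0 and 8125. The wet TAM 112 arrays had 4337, 5320.2 and 5646 and the dry ones 7933, 6512 and 8163. Every dry array lay above every wet array in both cultivars, though the TAM 111 comparison chose the gene.

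At grain filling the lgul signals were 7142, 5172 and 6398 on the wet TAM 111 arrays and 5931, 5309 and 7146 on the dry ones. They were 4595, 6751 and 7717 on the wet TAM 112 arrays and 3864, 3162.5 and 5531 on the dry ones. Here wet and dry overlapped in both cultivars, and 2 of the 3 dry TAM 112 arrays lay below all 3 wet ones.

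At heading the lgul mean in TAM 111 was 3700.0 ± 168 wet and 7285 ± 728 dry (SD, n = 3 arrays each), 1.96-fold and 0.97 on the log2 scale (SE 0.188). This comparison chose the gene and has no p-value. The 3' over 5' signal of the actin controls moved with the same groups, on the log2 scale from 0.12 ± 0.264 wet to 1.76 ± 0.629 dry, and its part in the lgul levels was not tested. Within groups lgul correlated with the actin ratio at r = -0.113 (24 arrays). The GAPDH ratio was -1.44 ± 0.748 wet and -1.34 ± 0.75 dry in these TAM 111 groups. In TAM 112 the actin ratio was 0.61 ± 0.940 and 0.79 ± 1.34. There the lgul mean was 5101 ± 681 wet and 7536 ± 894 dry, 1.48-fold and 0.56 on the log2 scale (SE 0.188). That change did not pass the test (limma adjusted p = 0.107). It passed with array weights, with the replicate number as a block and in a fit of the arrays compared alone.

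At grain filling in TAM 112 lgul fell in dry leaves, from 6354 ± 1598 wet to 4186 ± 1217 dry (SD, n = 3), 1.52-fold lower. The log2 change was -0.61 (SE 0.188, limma adjusted p = 0.0160, 31.6% of probe sets called), although the groups overlapped. The call was lost without any of 4 arrays, with limma adjusted p-values of 0.0608 and 0.107 without wet replicates 2 and 3, and 0.0573 and 0.121 without dry replicates 1 and 2. In a fit of the arrays compared alone it was 0.102. The GAPDH ratio given for GSTZ1 moved between these same arrays, from -2.73 ± 1.25 wet to -1.06 ± 0.489 dry, and lgul correlated with it at r = -0.472 within groups (24 arrays). Its part in the lgul levels was not tested. The actin ratio was 1.2 ± 0.505 wet and 1.11 ± 1.96 dry on these arrays. In TAM 111 the lgul change was -0.02 (SE 0.188, limma adjusted p = 0.953).

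In TAM 112 the lgul water change differed between the stages. Its rise at heading was not called, and the call of its fall at grain filling rested on few arrays. The dry minus wet change was lower at grain filling than at heading by 1.17 on the log2 scale (-1.17, SE 0.265, limma adjusted p = 0.00501). For this difference 14.5% of probe sets were called. Leaving out single arrays gave -1.39 to -0.99, with limma adjusted p-values of at most 0.020, and every other setting run on this probe set kept the call. In TAM 111 the difference was -0.99 (SE 0.265), a description because its heading contrast chose the gene. Between the cultivars the water change differed by -0.58 at grain filling (SE 0.265, limma adjusted p = 0.327) and by -0.41 at heading (description). On the second lgul probe set, described further on, the difference between stages in TAM 112 was -0.72 and not called (limma adjusted p = 0.0545).

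**Figure D2:**
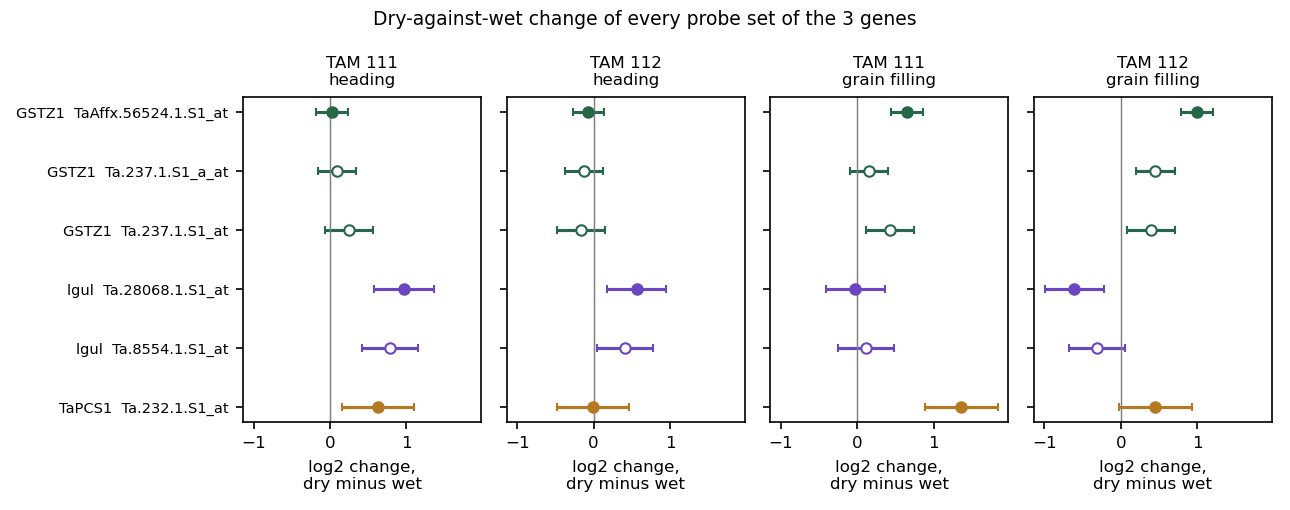
Dry minus wet change of every probe set of GSTZ1, lgul and TaPCS1 in each cultivar and stage, on the log2(signal + 11.71) scale with 95% confidence intervals from limma. Filled points are the probe sets described here and open points the other probe sets of the same gene. Intervals for the water comparison that chose each gene are descriptions only. Whether they exclude 0 is not a test, because the choice used the same arrays. Of the filled points, GSTZ1 lies near 0 at heading and at 0.65 and 0.998 at grain filling, while lgul goes from 0.97 and 0.56 at heading to -0.02 and -0.61.

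From heading to grain filling, lgul in dry TAM 112 leaves fell by 0.88 on the log2 scale (SE 0.188, limma adjusted p = 8.78e-04), and the groups did not overlap. Of all tested probe sets, 32.9% were called for this stage change. In wet TAM 112 leaves the stage change was 0.29 (limma adjusted p = 0.439). In TAM 111 it was 0.74 in wet and -0.26 in dry leaves (descriptions). Averaged over water, the stage changes were 0.24 in TAM 111 (limma adjusted p = 0.240) and -0.29 in TAM 112 (limma adjusted p = 0.104).

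Between the cultivars lgul differed in dry leaves at grain filling, where TAM 112 was lower by 0.58 (-0.58, SE 0.188, limma adjusted p = 0.0467, 12.5% of probe sets called), with overlapping groups. Without dry TAM 111 replicates 1 or 3 the limma adjusted p was 0.0821 and 0.217, and without dry TAM 112 replicates 1 or 2 it was 0.161 and 0.263. Without the 4 TAM 111 arrays numbered 2 it was 0.0580. The call was also lost with no filter on low signals (limma adjusted p = 0.0680), with no variance trend (0.0837) and in a fit of only the arrays compared (0.131). In wet leaves at that stage the cultivar difference was 0.01 (limma adjusted p = 0.994, 2.65% called). At heading it was 0.45 in wet leaves (description, 2.26% called) and 0.05 in dry leaves (description, 2.13% called). Averaged over water the differences were 0.25 at heading (limma adjusted p = 0.424) and -0.29 at grain filling (limma adjusted p = 0.186).

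The lgul means ran from 3700.0 in wet heading leaves of TAM 111 through 4186 in dry grain filling leaves and 5101 in wet heading leaves of TAM 112. Then came 6129, 6237 and 6354 in dry and wet grain filling leaves of TAM 111 and wet grain filling leaves of TAM 112, and 7285 and 7536 in the dry heading leaves of TAM 111 and TAM 112. None of the 7 steps exceeded the summed SDs of its neighbours (0 of 7), and the ranges of all neighbours overlapped.

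A second lgul probe set, Ta.8554.1.S1_at, was the closest of all 37515 other tested probe sets to the first, with r = 0.936 over the 24 arrays and 0.919 within groups. Its dry minus wet changes at heading were 0.79 in TAM 111 (description) and 0.41 in TAM 112 (limma adjusted p = 0.241). At grain filling they were 0.11 in TAM 111 and -0.31 in TAM 112 (limma adjusted p = 0.191). The fall in dry TAM 112 leaves from heading to grain filling was called for it too (-0.53, limma adjusted p = 0.0244, 32.9% of probe sets called). So was the cultivar difference in dry grain filling leaves (-0.55, limma adjusted p = 0.0451, 12.5% called). Its difference between the stages in TAM 112 was -0.72 (limma adjusted p = 0.0545). Its stage rise in TAM 111 averaged over water was 0.38 (limma adjusted p = 0.0393, 16.7% called).

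**Figure D3:**
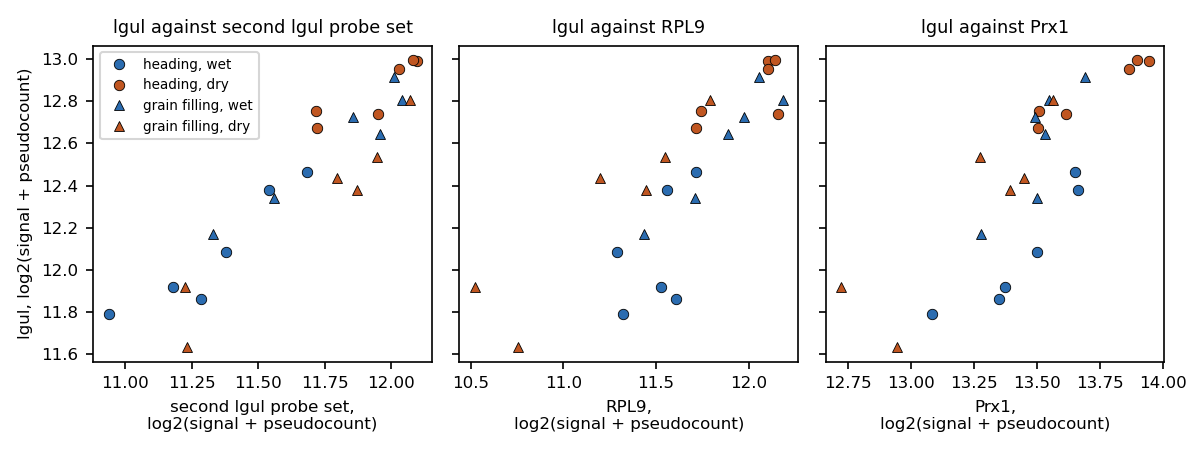
lgul on each of the 24 arrays against its second probe set and against the named genes closest to it, on the log2(signal + 11.71) scale. Each point is 1 array, with water shown by colour and stage by shape, and Prx1 is the synonym of TaPrx1. The points of the second probe set follow lgul with r = 0.936, those of RPL9 with 0.824 and those of TaPrx1 with 0.808.

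TaPCS1 had its widest spread between wet and dry leaves in TAM 111 at grain filling, and none of its tested changes was called. At heading the wet TAM 111 arrays had signals of 388, 299 and 249 and the dry ones 554, 511 and 391. The wet TAM 112 arrays had 562, 335 and 549 and the dry ones 504, 458 and 446. Dry lay above wet on all TAM 111 arrays, while the TAM 112 groups overlapped.

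At grain filling the TaPCS1 signals in TAM 111 were 334, 317 and 213 wet and 590.4, 675 and 1047 dry. In TAM 112 they were 456, 463 and 512 wet and 745, 543 and 702 dry. Dry arrays were above wet arrays in both cultivars, though the TAM 111 comparison chose the gene. The highest of all 24 values was dry TAM 111 replicate 3.

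The means of the choosing comparison, TAM 111 at grain filling, were 288 ± 65.7 wet and 771 ± 243 dry (SD, n = 3 arrays each), 2.58-fold and 1.37 on the log2 scale (SE 0.227). Leaving out single arrays moved it between 1.13 and 1.53. In TAM 112 the means were 477 ± 30.4 wet and 663 ± 106 dry, with a log2 change of 0.45 (SE 0.227, limma adjusted p = 0.139). At heading the change was 0.62 in TAM 111 (SE 0.227, limma adjusted p = 0.135) and -0.00 in TAM 112 (SE 0.227, limma adjusted p = 0.996). Intervals of this width, from -0.48 to 0.47 in the last case, do not show that the water treatments had equal TaPCS1 levels.

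Neither stage nor cultivar changes of TaPCS1 passed the test. Grain filling minus heading was 0.26 in TAM 111 (limma adjusted p = 0.318) and 0.25 in TAM 112 (limma adjusted p = 0.273). TAM 112 minus TAM 111 was 0.28 at heading (limma adjusted p = 0.478) and 0.27 at grain filling (limma adjusted p = 0.314). The difference of water changes between stages in TAM 112 was 0.46 (SE 0.322, limma adjusted p = 0.388), and that between cultivars at heading was -0.63 (limma adjusted p = 0.976). Described without a test, the water change was lower in TAM 112 than in TAM 111 at grain filling by 0.91 (-0.91), and higher at grain filling than at heading in TAM 111 by 0.74. Of 7 comparisons of water, stage and cultivar with a p-value, limma called 0, where 3.6% to 31.6% of all tested probe sets were called. An unadjusted limma p was under 0.05 in 1 of them, water in TAM 111 at heading. The same held for 6378 of the 37516 tested probe sets in that comparison.

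By mean signal TaPCS1 was lowest in wet TAM 111 leaves, at 288 (grain filling) and 312 (heading). A block of 4 groups followed between 469 and 485: TAM 112 dry heading, wet grain filling and wet heading, and TAM 111 dry heading. Dry grain filling leaves were highest, at 663 in TAM 112 and 771 in TAM 111. Of the 7 steps, 1 was larger than the summed SDs of its neighbours, from wet TAM 111 heading to dry TAM 112 heading, the lowest of the block (157 against 101). The wet TAM 112 heading arrays, also in the block, overlapped those of wet TAM 111 heading. TAM 112 minus TAM 111 was 0.59 in wet heading leaves (limma adjusted p = 0.251) and -0.03 in dry heading leaves (limma adjusted p = 0.984), and 0.73 in wet and -0.18 in dry grain filling leaves (descriptions).

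The shares of variation are descriptions, since the arrays include the water contrast for which each gene was chosen, a different one for each gene. Of the GSTZ1 sum of squares over the 24 arrays on the log2 scale, water took 40%, the interaction of stage and water 43.6% and the spread between replicates 8.44%. For lgul the same shares were 7.86%, 45% and 26.3%, with 11% for cultivar by stage and 9.42% for cultivar by water. For TaPCS1 water took 37.7%, cultivar by water 15%, stage by water 9.09% and replicates 23.6%. The residual SD of GSTZ1 was 0.114 on the log2 scale, and 5.65% of tested probe sets had a smaller one, against a median of 0.310 over all tested. It was 0.253 for lgul and 0.296 for TaPCS1.

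**Figure D4:**
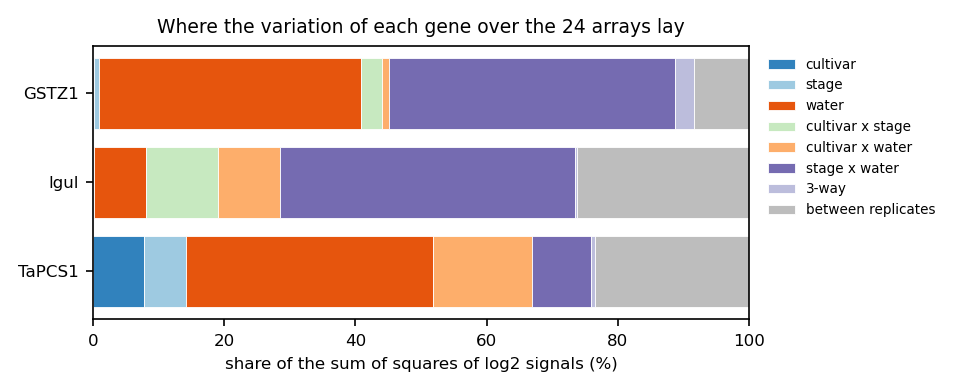
Share of the sum of squares of log2(signal + 11.71) over the 24 arrays, in percent, by cultivar, stage, water, their interactions and the spread between replicates, for each gene. Stage by water is 43.6% for GSTZ1 and 45% for lgul and 9.09% for TaPCS1.

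Across the 24 arrays the genes did not move as a unit. The log2 values of GSTZ1 and TaPCS1 correlated at r = 0.496, and those of GSTZ1 and lgul at -0.392, and lgul and TaPCS1 at 0.118. Within groups these values were -0.207, -0.191 and 0.153. The points share preparation, array scaling and the 8 groups, and the correlations are descriptions.

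Other genes of glutathione, redox and metal-binding chemistry with a name in the annotation were few: a list by name gave 6 genes, 3 of them members, and the other 3 (Trx-M, peroxidase and TaPrx1) were tested. Trx-M encodes a chloroplast thioredoxin. At heading 0 of 3 were called in either cultivar, where 4.54% (TAM 111) and 3.6% (TAM 112) of all tested probe sets were. In dry grain filling leaves Trx-M fell in TAM 111 by 0.33 (limma adjusted p = 0.00809) and in TAM 112 by 0.55 (limma adjusted p = 3.58e-05), and TaPrx1 fell in TAM 112 by 0.45 (limma adjusted p = 0.0296), beside 18.9% and 31.6% of all tested probe sets called. With stage, averaged over water, both fell in TAM 112, by 0.26 (limma adjusted p = 0.00220) and 0.42 (limma adjusted p = 0.00573), beside 29.4% of all tested probe sets called. TaPrx1 stands here by its brightest probe set. Its dimmest gave -0.13 for this stage change (limma adjusted p = 0.616), and its others were called as falls. No increase of the 3 genes was called in any of the 8 comparisons, where 3.6% to 31.6% of all tested probe sets were called in either direction. Called as increases were 622 to 5057 of the 37516 tested. With only 3 genes, 0 increases do not set them apart from all tested probe sets. Positive changes that did not pass included 0.61 for peroxidase in dry TAM 112 leaves at grain filling (limma adjusted p = 0.175) and 0.42 for TaPrx1 in dry TAM 111 leaves at heading (limma adjusted p = 0.140). The median change of the 3 in TAM 112 at grain filling, which is the value of TaPrx1, was -0.45, against -0.11 over all tested probe sets. Trx-M is also 1 of the 7 photosynthesis genes used above. TSA-WHEAT, a thiol-specific antioxidant, and CAT1, a catalase gene, were added after their values were seen. The brighter TSA-WHEAT probe set fell in dry grain filling leaves by 0.26 in TAM 111 (limma adjusted p = 0.0268) and by 0.30 in TAM 112 (limma adjusted p = 0.00728). Its dimmer probe set was not called there, with -0.03 (limma adjusted p = 0.971) and -0.56 (limma adjusted p = 0.195). CAT1 was not called for water in either cultivar or stage.

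The named genes whose pattern over the 24 arrays was most like each member are given as a description, with Pearson's r of log2 values. The 24 arrays include the comparison that chose each member. Closest to GSTZ1 among 77 named genes was PMA2005, a late embryogenesis abundant protein gene (r = 0.779), then TPC1, an ion channel gene (0.737), and xipI, a xylanase inhibitor gene (0.735). Within groups these correlations were 0.39, -0.127 and 0.155. PMA2005 signals averaged 24.3 wet and 3118 dry in TAM 112 at grain filling, and 64.1 and 1438 in TAM 111. lgul was most like RPL9, a ribosomal protein gene (r = 0.824), TaPrx1 (0.808) and SAHH, adenosylhomocysteinase of the methyl cycle (0.580), among 76 named genes. RPL9 averaged 2869 wet and 4127 dry at heading in TAM 111 and 3673 wet and 1838 dry at grain filling in TAM 112. Within groups lgul correlated with RPL9 at 0.853, with TaPrx1 at 0.773 and with SAHH at 0.251.

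TaPCS1 was most like hsp16.9A, a small heat shock protein gene (r = 0.690), PIMT, which encodes a repair enzyme for aged proteins (0.662), and 6-FEH, a fructan-degrading exohydrolase (0.646). Within groups these correlations were 0.275, -0.109 and -0.0476. 6-FEH averaged 716 wet and 1715 dry in TAM 111 at grain filling, and 789 and 2308 in TAM 112. hsp16.9A was below 69 on average in all wet groups and in dry heading leaves of TAM 111 (30.4 ± 7.30, SD). In the other dry groups it averaged 117 ± 93.8 (TAM 112 heading), 173 ± 125 (TAM 111 grain filling) and 160 ± 104 (TAM 112 grain filling). Among all 37515 other tested probe sets, r exceeded 0.9 for 5 with GSTZ1, 4 with lgul and 0 with TaPCS1.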

How the data were processed

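The deposited table holds 1 MAS5 signal per probe set and array, a linear intensity scaled by the authors, made with MAS5 per the submitters' processing notes (its version is not given in the sources used here). Flag leaf total RNA was taken with Trizol and biotin-labelled, per the labels' protocols. All 24 columns were matched to a labelled sample (0 unmapped), and groups came from the labels.

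From these intensities, log2(signal + 11.71) was modelled in R 4.3.3 by limma 3.58.1, using 1 mean for each of 8 groups, contrasts and eBayes with a variance trend. 11.71 is the 20th percentile of all values outside the 111 control probe sets. Probe sets above 69, the median of the same values, in at least 3 arrays were tested, and p-values were adjusted over all 37516 by Benjamini-Hochberg. The fit was tested on simulated data. Gene names came from the platform annotation (1272 probe sets with a gene).

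The members and the gene lists were chosen with earlier results of these data known. Named genes are the members, the tested list genes and the 3 named genes most correlated with each member. CAT1, TSA-WHEAT, the other probe sets of the members and the comparisons within 1 water treatment were added later. Alternatives were other pseudocounts and filters, quantile normalization, no variance trend, weights for arrays, a block for the replicate number, fits of only the arrays compared and leaving out arrays.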

Additional observations from a re-analysis of the deposited data

Results flagged for a closer look

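For GSTZ1 the dry minus wet change in TAM 111 was larger at grain filling than at heading, by 0.62 on the log2 scale (SE 0.142, limma adjusted p = 0.0191). It stands here because the test of the difference between the stages passed, beside 3.07% of all tested probe sets called. Without the 3 arrays that stood apart it was 0.43 and no longer called (limma adjusted p = 0.227). The other 2 GSTZ1 probe sets gave 0.0645 and 0.18, not called (limma adjusted p = 0.905 and 0.740).

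For lgul the dry minus wet change in TAM 112 was lower at grain filling than at heading, with a difference of -1.17 on the log2 scale (SE 0.265, limma adjusted p = 0.00501). It stands here for the same reason, beside 14.5% of all tested probe sets called. Its heading change was 0.56 and its grain filling change -0.61. The second lgul probe set gave -0.72, just short of the threshold (limma adjusted p = 0.0545).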

How the results depend on the processing

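Of 246 values of the 24 results for water, stage and cultivar under other settings (single arrays left out and other probe sets aside), 238 kept their direction and side of the threshold. Wet and dry arrays of the same replicate number had deviations that correlated at r = -0.0479 to 0.183. The highest value was that of the TAM 111 heading arrays numbered 2, both among the 3 that stood apart. With the replicate block lgul in TAM 112 was called for water at heading (0.56, limma adjusted p = 0.0398) and for stage (-0.29, limma adjusted p = 0.0435). With array weights these were 0.59 (limma adjusted p = 0.0336) and -0.32 (limma adjusted p = 0.0476). Fitting only the arrays compared called the heading change (0.56, limma adjusted p = 0.0411) and lost the grain filling one (-0.61, limma adjusted p = 0.102). Quantile normalization turned values near 0, for lgul to 0.0048 in TAM 111 at grain filling and to -0.0074 between the cultivars in wet grain filling leaves, and for TaPCS1 to 0.0029 in TAM 112 at heading. Without the 3 arrays that stood apart, or all 4 TAM 111 arrays numbered 2, a choice made after seeing the data, the cultivar difference was -0.12 for lgul in wet grain filling leaves and 0.010 for TaPCS1 in dry heading leaves. The GSTZ1 difference between stages in TAM 111 missed the threshold without a variance trend too (limma adjusted p = 0.0517).

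The other probe sets gave other values. For GSTZ1 the _a_at and _at sets had water changes at grain filling of 0.15 (no longer called) and 0.43 in TAM 111, and 0.45 and 0.39 in TAM 112. Their stage changes were -0.33 and -0.38 in TAM 111 and -0.0598 and -0.34 in TAM 112. In dry leaves alone these were -0.30 and -0.29 in TAM 111 and, for the _at set, -0.0677 in TAM 112. Their cultivar differences were 0.0407 and 0.24 in wet heading leaves and 0.0590 and 0.0926 in wet grain filling leaves. For the _at set the cultivar difference at heading was 0.0324 and the cultivar difference of the grain filling water change -0.0417. The second lgul set gave water changes at grain filling of 0.11 in TAM 111 and -0.31 in TAM 112, stage changes of 0.38 in TAM 111 over both treatments and 0.0424 in its dry leaves, and -0.12 between the cultivars in wet grain filling leaves.

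Leaving out 1 array at a time turned or moved across the threshold the following. For GSTZ1 the heading water change lay at -0.0259 to 0.11 in TAM 111 and at -0.15 to 0.0130 in TAM 112, and the cultivar difference in wet grain filling leaves at -0.0957 to 0.0420. The GSTZ1 difference between stages in TAM 111 ran from 0.54 to 0.70 and its wet stage change from -0.56 to -0.42. For lgul the grain filling water change lay at -0.15 to 0.0804 in TAM 111 and at -0.83 to -0.42 in TAM 112, the stage change in TAM 112 from -0.40 to -0.18, and the cultivar difference at grain filling from -0.40 to -0.18. The lgul cultivar difference ran from -0.0148 to 0.15 in dry heading leaves, from -0.15 to 0.22 in wet and from -0.80 to -0.39 in dry grain filling leaves. For TaPCS1 the heading water change in TAM 112 ran from -0.24 to 0.12, and the wet stage change at -0.26 to 0.0809 in TAM 111 and at -0.22 to 0.15 in TAM 112. Its cultivar difference ran from -0.18 to 0.0671 in dry heading and from -0.35 to 0.0578 in dry grain filling leaves.

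Counts of called probe sets also moved, which shifts the percentages given for all tested. At heading the water count of 1705 in TAM 111 was 759 without the 4 arrays numbered 2 and 2595 with array weights, and that of 1351 in TAM 112 went down to 479 when 1 array was left out. Without those 4 arrays the TAM 111 counts of 7096 (water at grain filling), 6253 (stage) and 1152 (difference between stages) were 3901, 2604 and 52. Leaving out 1 array took the count for the difference between stages in TAM 112 from 5428 to between 3516 and 7422 and that for the cultivars in dry grain filling leaves from 4708 to between 2096 and 7203. It took the count for wet TAM 111 stage changes from 1028 to as low as 453, for dry ones from 6635 to 3865, and for wet TAM 112 ones from 1623 to 622. The counts for cultivar differences went from 846 to 430 (wet heading), 800 to 367 (dry heading) and 995 to 461 (wet grain filling), and for cultivar differences of the water change at grain filling from 13 to between 2 and 2442. The cause of these shifts was not tested, beyond the loss of arrays.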
